A study of Mus musculus with 63 samples.

Results

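The genes described here encode interleukin-1, tumour necrosis factor (TNF), their receptors and the first inhibitor of NF-kB, and were read in 4 cell populations sorted from the cortex of mice after a burn or a sham procedure. They are 10 of the 56980 genes in the count tables, chosen by symbol: Il1a, Il1b, Il18, Tnf and Il6 (cytokines), Il1rn (a receptor antagonist), Il1r1, Tnfrsf1a and Tnfrsf1b (receptors) and Nfkbia (the inhibitor). All 10 symbols matched an Ensembl identifier of the tables.

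Female C57BL/6J mice, 12 weeks old at the start, received a full thickness burn over 7 to 8% of the body surface on the shaved right flank, or were shaved, anaesthetised and not burned (sham), and cortex was collected 5 weeks later. Every mouse of both groups had first been injected in both motor cortices with a mixture of adeno-associated viruses, one carrying eGFP behind a CaMKII promoter and one carrying mRuby2 behind the mDlx enhancer, and every mouse had analgesia before surgery and in the drinking water. Further buprenorphine after surgery was given by need, and the methods name burn mice as those that received it. From the motor cortex, cells with eGFP alone (CaMKII positive) and cells with both fluorophores (double-positive) were sorted. From the cortex caudal to it, cells binding antibodies to ACSA2, an astrocyte surface antigen, or to CD11b, an integrin of microglia and other myeloid cells, were sorted. One library was made per mouse and population. After leaving out mouse 3 and the double-positive library of mouse 8, as the study did, 58 of 63 libraries from 17 mice remained: 4 burn and 6 sham CaMKII positive, 9 and 7 double-positive, 9 and 8 ACSA2-positive, and 8 and 7 CD11b-positive libraries.

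Interleukin-1 alpha and beta bind the receptor encoded by Il1r1, and the protein of Il1rn occupies that receptor without signalling. TNF signals through the receptors encoded by Tnfrsf1a and Tnfrsf1b. Both routes release NF-kB from IkB-alpha, the product of Nfkbia, and NF-kB then induces Nfkbia itself, Il1b, Tnf and Il6. In the brain, microglia are the best known source of interleukin-1 and TNF, and astrocytes and endothelial cells carry receptors for them.

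The label of each population was read against marker genes. The CD11b-positive libraries carried 10 microglial markers at a summed level of 23143 to 36297 CPM (the count of a gene divided by all counts of the same library, times 1000000). The ACSA2-positive libraries carried 10 astrocyte markers at 39149 to 55086 CPM, with the microglial markers at 154 to 302 CPM. The populations sorted by virus went against their neuronal labels. The double-positive libraries held the microglial markers at 19752 to 36649 CPM and 9 inhibitory neuron markers at 0.800 to 3.75 CPM. The CaMKII positive libraries held the astrocyte markers at 14702 to 27467 CPM, 7 endothelial markers at 3942 to 11073 CPM, the microglial markers at 546 to 2477 CPM, and 8 excitatory neuron markers at 27.6 to 454 CPM. Both are therefore called here by their sort and not as neurons. The kept libraries held 13346143 to 134703744 counts. In bulk libraries such as these, fewer cells of a type and less RNA per cell cannot be told apart.

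Nfkbia and Il6 are shown first by the promoter sequence, because an NF-kB consensus motif lay close to the start of each, and Tnf and Il1b beside them for comparison. Each line is the 250 bases before the RefSeq start on the strand of the gene, in build GRCm38.p6, and the capitals mark the motif. The Nfkbia stretch was chr12:55492648-55492897 on the minus strand, with the motif at bases -29 to -20 from the start. The Il6 stretch was chr5:30012864-30013113 on the plus strand, with the motif at bases -44 to -35. The Tnf stretch was chr17:35202008-35202257 and the Il1b stretch chr2:129371140-129371389, both on the minus strand.
Nfkbia: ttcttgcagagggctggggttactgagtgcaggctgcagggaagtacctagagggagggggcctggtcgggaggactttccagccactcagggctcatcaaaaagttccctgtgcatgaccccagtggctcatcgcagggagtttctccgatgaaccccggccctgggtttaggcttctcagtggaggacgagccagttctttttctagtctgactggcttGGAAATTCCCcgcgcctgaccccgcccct
Il6: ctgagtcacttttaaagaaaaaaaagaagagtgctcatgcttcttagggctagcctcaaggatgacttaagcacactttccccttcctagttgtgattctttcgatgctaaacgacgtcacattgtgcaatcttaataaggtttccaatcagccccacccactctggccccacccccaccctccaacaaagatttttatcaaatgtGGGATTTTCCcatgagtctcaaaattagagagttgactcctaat
Tnf: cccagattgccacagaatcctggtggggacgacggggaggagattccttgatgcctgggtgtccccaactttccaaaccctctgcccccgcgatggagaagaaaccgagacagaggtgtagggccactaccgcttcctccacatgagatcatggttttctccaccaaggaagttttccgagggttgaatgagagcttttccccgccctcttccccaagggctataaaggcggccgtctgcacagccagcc
Il1b: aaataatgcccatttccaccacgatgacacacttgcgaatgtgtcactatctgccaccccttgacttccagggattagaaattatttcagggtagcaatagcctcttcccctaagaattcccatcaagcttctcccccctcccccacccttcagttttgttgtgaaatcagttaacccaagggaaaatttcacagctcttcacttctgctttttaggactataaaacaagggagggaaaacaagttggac
The motif, GGGRNNYYCC with R for A or G, Y for C or T and N for any base, was searched on both strands. The windows ran from 250 bases before to 50 bases after each start. All 10 genes had a window, 13 windows in all, and 3 genes held a match, the third being Il1r1 in its second window at bases -232 to -223. The Il6 match reads as this pattern on the strand of the gene, and those of Nfkbia and Il1r1 on the opposite strand. Of all 27025 genes with a window, 9.55% held a match. A match describes the letters only, and its absence from the Tnf and Il1b windows says only that these letters were not there.

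The plot of the 10 genes by library shows the levels that the next paragraphs describe. Nfkbia and Il1a were among the more abundant transcripts of the CD11b-positive libraries, where 177 and 197 genes had a higher mean CPM. Divided by the summed exon length of each gene, the mean level there was 409 CPM per kb for Nfkbia, 318 for Il1a, 103 for Tnfrsf1b, 77.5 for Tnfrsf1a, 77.1 for Tnf and 34.3 for Il1b. Il18 followed at 24.0 CPM per kb, and Il6 at 2.37, Il1rn at 0.406 and Il1r1 at 0.322 closed the order. In the ACSA2-positive libraries the order on the same scale was led by Il18 at 135 CPM per kb, followed by Nfkbia at 29.3 and Tnfrsf1a at 23.7.

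**Figure D1:**
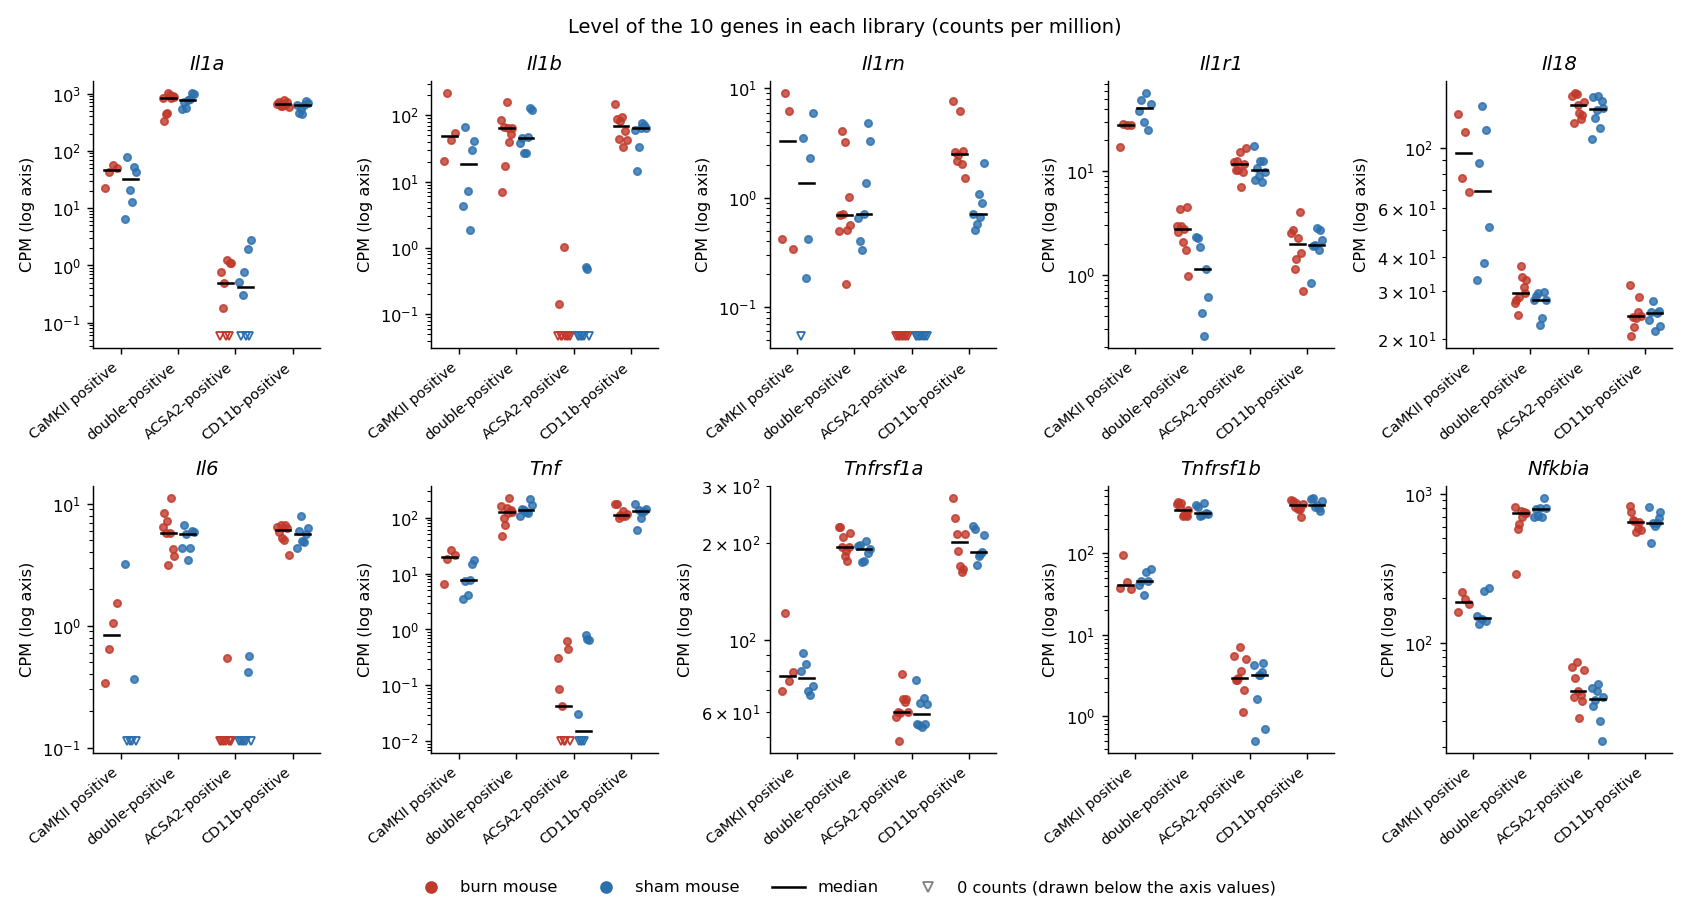
Level of each of the 10 genes in every kept library, in CPM on a log axis, by sorted population and by treatment. Il1a lay between 445 and 761 CPM in the CD11b-positive libraries and at 2.73 CPM or less in the ACSA2-positive ones, while Il18 lay between 108 and 158 CPM in the ACSA2-positive libraries and between 20.6 and 31.4 in the CD11b-positive ones.

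Il1a, which encodes a cytokine that acts as soon as it leaves the cell, had a median of 808 CPM in the double-positive, 627 in the CD11b-positive, 42.5 in the CaMKII positive and 0.498 in the ACSA2-positive libraries. The first and second of these populations overlapped in range, and the others were separate. Gm14023, on the opposite strand, covered 11.2% of the exon bases of Il1a and Il1bos 1.31% of those of Il1b, and the use of strand in counting is not given in the sources used here, so reads of these pairs are uncertain there. Il1b, whose product must be cut by caspase-1 to act, had medians of 63.7 CPM in the CD11b-positive, 49.6 in the double-positive and 35.6 in the CaMKII positive libraries, which overlapped, and was at 0 in 13 of 17 ACSA2-positive libraries. Il1b was also the most uneven cytokine between libraries of a population in the CD11b-positive and double-positive cells, with coefficients of variation of 49.7% and 68.4%, against 15.0% and 28.9% for Il1a.

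Il18, a cytokine of the same family that is also cut by caspase-1, was instead highest in the ACSA2-positive libraries. Its median was 139 CPM in the ACSA2-positive, 82.7 in the CaMKII positive, 28.5 in the double-positive and 24.4 in the CD11b-positive libraries, and neighbours in this order overlapped. Tnf, the founding ligand of its family, had medians of 130 CPM in the double-positive and 128 in the CD11b-positive libraries, which overlapped, then 11.2 in the CaMKII positive libraries, and was at 0 in 8 of 17 ACSA2-positive libraries. Il6, a cytokine of the acute phase, was low in every population, with medians of 5.82 CPM in the CD11b-positive, 5.77 in the double-positive and 0.355 in the CaMKII positive libraries, and was at 0 in 14 of 17 ACSA2-positive libraries.

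Il1rn had medians of 2.04 CPM in the CD11b-positive, 1.35 in the CaMKII positive and 0.697 in the double-positive libraries, which overlapped. It had no count in any of the 17 ACSA2-positive libraries. Taking 3 counts per library as the limit that a count of 0 allows, which is 0.110 CPM on average there, its mean was at least 20.5-fold higher in the CD11b-positive, at least 25.9-fold higher in the CaMKII positive and at least 13.1-fold higher in the double-positive libraries. These limits cover counting error only.

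The receptors had different orders. Il1r1, the signalling receptor for interleukin-1, was highest in the CaMKII positive libraries at a median of 29.4 CPM and followed in the ACSA2-positive libraries at 10.8, with overlapping ranges, and stood at 2.17 in the double-positive and 1.95 in the CD11b-positive libraries. Tnfrsf1a, the TNF receptor with a death domain, differed least between populations in its median, from 195 CPM in the double-positive and 188 in the CD11b-positive libraries to 77.3 in the CaMKII positive and 59.9 in the ACSA2-positive ones. Tnfrsf1b, the TNF receptor without a death domain, ran from 398 CPM in the CD11b-positive and 327 in the double-positive to 45.3 in the CaMKII positive and 3.24 in the ACSA2-positive libraries. Per unit of exon length, the median ratio of Tnfrsf1b to Tnfrsf1a was 1.39 in the CD11b-positive, 1.14 in the double-positive, 0.385 in the CaMKII positive and 0.0361 in the ACSA2-positive libraries. Nfkbia had medians of 736 CPM in the double-positive and 646 in the CD11b-positive libraries, which overlapped, 172 in the CaMKII positive and 44.7 in the ACSA2-positive ones.

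The populations were compared with edgeR's quasi-likelihood test over all genes, and a gene was called at a Benjamini-Hochberg adjusted p (p.adj) of 0.05 or less and an absolute log2 fold change (log2FC) of 1 or more. Between the CD11b-positive and ACSA2-positive cells, sorted from the same tissue, all 10 genes were called, beside 54.2% of the 30983 genes tested. The 8 that were higher in the CD11b-positive cells stand beside 21.8% of all genes. Of these, Il1a had a log2FC of 9.84 (SE 0.42), Tnf 9.15 (SE 0.35), Il1b 8.91 (SE 0.45), Tnfrsf1b 6.87 (SE 0.25), Il6 6.19 (SE 0.68), Nfkbia 3.75 (SE 0.12) and Tnfrsf1a 1.62 (SE 0.08), and Il1rn is given above as a bound. The 2 that were lower in the CD11b-positive cells stand beside 32.4% of all genes, and were Il1r1 with a log2FC of -2.58 (SE 0.20, p.adj = 2.59e-13, edgeR) and Il18 with -2.54 (SE 0.06, p.adj = 8.27e-28, edgeR). The median log2FC over all genes was -0.28 with TMM scaling and -0.21 with DESeq2 size factors, and the directions of the 10 held under both.

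Between the double-positive and the CD11b-positive cells, 0 of 10 genes were called by edgeR and 0 by DESeq2, beside 7.58% of the 28752 genes tested by edgeR. At an unadjusted p under 0.05, 2 of 10 differed, beside 30.7% of all genes. Tnfrsf1b was lower in the double-positive cells with a log2FC of -0.26 (SE 0.06, p.adj = 0.00246, edgeR), and Il18 had 0.15 (SE 0.07, p.adj = 0.118, edgeR). These populations came from different pieces of cortex, so population and region cannot be told apart, which also holds for the CaMKII positive against the ACSA2-positive cells.

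In the CaMKII positive against the ACSA2-positive cells, 7 of 10 genes were called, all higher in the CaMKII positive cells, beside 12.7% of all genes called higher and 16.2% called in all. Il1b had a log2FC of 7.95 (SE 0.74), Il1a 5.38 (SE 0.63), Tnf 5.30 (SE 0.68), Tnfrsf1b 3.70 (SE 0.29), Nfkbia 1.87 (SE 0.15) and Il1r1 1.32 (SE 0.18), and Il1rn is given above as a bound. Il18 was lower with a log2FC of -0.81 (SE 0.18, p.adj = 7.03e-04, edgeR), under the fold required for a call. Il6 had 2.90 (SE 1.56, p.adj = 0.170, edgeR) and Tnfrsf1a 0.21 (SE 0.10, p.adj = 0.136, edgeR).

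In the CaMKII positive against the double-positive cells, both from the motor cortex, 8 of 10 genes were called, beside 45.8% of all genes. Il1r1 with a log2FC of 4.13 (SE 0.37) and Il18 with 1.37 (SE 0.19) were higher in the CaMKII positive cells, beside 26.4% of all genes. Il1a with -4.71 (SE 0.29), Tnf with -3.81 (SE 0.28), Il6 with -3.46 (SE 0.66), Tnfrsf1b with -2.97 (SE 0.17), Nfkbia with -2.26 (SE 0.14) and Tnfrsf1a with -1.50 (SE 0.09) were lower, beside 19.4% of all genes. Il1b had -1.0 (SE 0.53, p.adj = 0.101, edgeR) and was not called. The fit with the mouse as a block used the 18 of 26 libraries of the 9 mice with both populations, and there Il1b had -1.31 (SE 0.48, p.adj = 0.0353, edgeR) and was called. Over the same 18 libraries with no block it had -1.06 (SE 0.57, p.adj = 0.121, edgeR) and was not called. Il1rn had 0.22 (SE 0.80, p.adj = 0.831, edgeR).

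The genes that were high in the CD11b-positive cells reached unequal levels in the CaMKII positive libraries. There, over burn and sham libraries together, the median CPM was 56.0% of that in the CD11b-positive libraries for Il1b, 41.0% for Tnfrsf1a, 26.5% for Nfkbia, 6.78% for Il1a, 6.09% for Il6, 8.78% for Tnf, 11.4% for Tnfrsf1b and 3.95% for the summed microglial markers. Burn mice gave 4 of 10 CaMKII positive and 8 of 15 CD11b-positive libraries, so the shares were also read within each treatment. For Il1b the share was 29.4% in the sham and 69.9% in the burn libraries, and for Tnf it was 5.76% and 17.5%. Il6 had a share of 0% and 13.9%, and the microglial markers 2.95% and 4.51%. Il1rn had 66.3% over both treatments, but its CaMKII positive median was the higher one within each, at 1.35 against 0.712 CPM in the sham and 3.32 against 2.52 CPM in the burn libraries. Per unit of length, the ratio of Il1b to Il1a had a median of 0.851 in the CaMKII positive libraries, where it ran from 0.151 to 5.34, against 0.0694 in the double-positive and 0.101 in the CD11b-positive ones. The summed markers of border macrophages and monocytes stood at 17.9% and those of neutrophils at 0.0319% of the CD11b-positive median. The neutrophil markers were uneven, and their sum of 62.3 CPM in burn mouse 2 stood beside a CD11b-positive median of 95.3 CPM. Within the CaMKII positive libraries the level of Il1b ran from 1.85 CPM in sham mouse 17, with the lowest marker sum of 546 CPM, to 217 CPM in burn mouse 20, with the highest of 2477 CPM. The sham mice 8 and 16, next lowest in the marker sum at 600 and 725 CPM, had 4.28 and 7.35 CPM of Il1b. The part of these cells in the Il1b level was not tested.

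**Figure D2:**
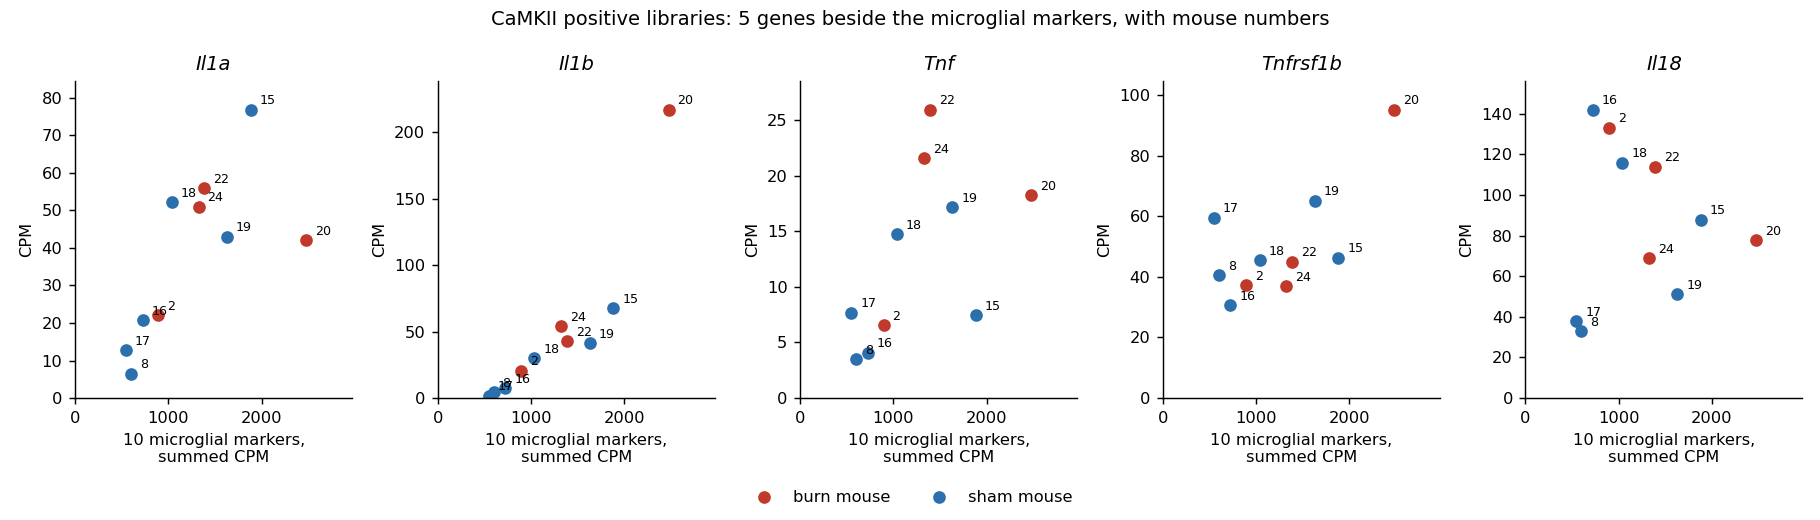
CPM of 5 genes (vertical axes) in the 10 CaMKII positive libraries against the summed CPM of 10 microglial markers (horizontal axes), with the number of each mouse and its treatment. Burn mouse 20, at 2477 CPM of the markers, had 217 CPM of Il1b, and sham mouse 17, at 546 CPM, had 1.85.

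Whether the burn changed these genes 5 weeks later was asked within each population, with the sequencing batch in the fit. By edgeR, 0 of the 10 genes were called in any of the 4 populations, beside 0% of all genes in each. DESeq2 called 0 of the 10 as well, and 3 genes of all those tested in the CaMKII positive, 2 in the double-positive, 27 in the ACSA2-positive and 80 in the CD11b-positive cells. Il1rn, at 0 in all ACSA2-positive libraries, could not be tested there. Burn and sham libraries overlapped for each of these genes in each population, and over all genes 0.37% did not overlap in the CaMKII positive, 0% in the double-positive, 0.0143% in the ACSA2-positive and 0.0153% in the CD11b-positive cells. The median burn minus sham log2FC of the 10 was 0.50 in the CaMKII positive cells, beside 0.018 over all genes, and -0.013 beside -0.0039 in the double-positive cells. It was 0.056 over the 9 tested beside 0.045 in the ACSA2-positive cells and 0.043 beside 0.0023 in the CD11b-positive cells.

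**Figure D3:**
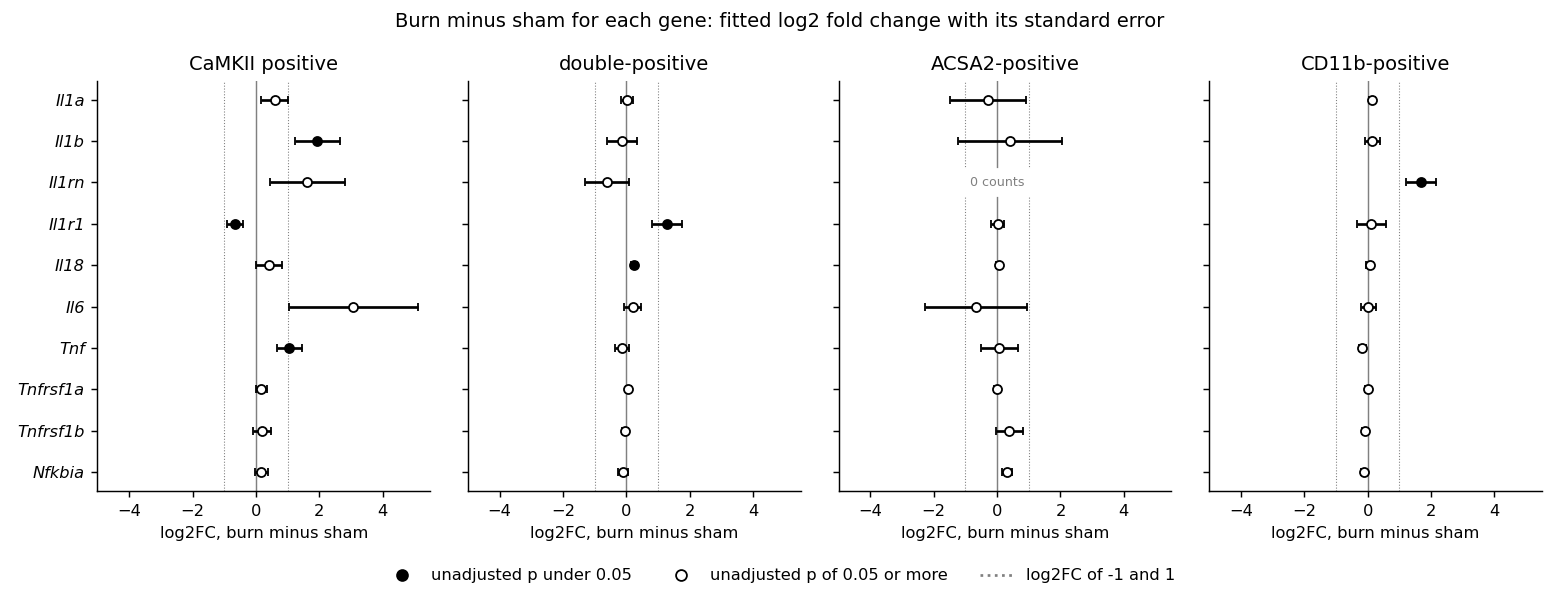
Burn minus sham log2FC of each gene from edgeR (horizontal axes) with its standard error (bars), in a panel for each sorted population. Il1rn in the CD11b-positive cells stands at 1.68 (SE 0.48), and the other 9 genes there lie between -0.17 and 0.14.

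At an unadjusted p under 0.05, 1 of 10 genes differed in the CD11b-positive cells, beside 7.81% of all genes. This was Il1rn, the interleukin-1 receptor antagonist. Its level ran from 1.53 CPM through a median of 2.52 to 7.59 CPM in the burn libraries and from 0.506 through 0.712 to 2.07 CPM in the sham libraries, which is 10 to 343 counts per library. All 8 burn libraries lay above the sham median, and 6 of them above every sham library. The overlap came from sham mouse 19 at 2.07 CPM, above the burn mice 22 at 2.04 and 24 at 1.53 CPM. The log2FC was 1.68 (SE 0.48, unadjusted p = 0.00181, p.adj = 0.639, edgeR), the 35th smallest p of 26079 genes, and DESeq2 gave p.adj = 0.0729, so the difference did not pass the correction. Within the largest batch alone it was 1.47 (SE 0.54). Sham mouse 13 was the only CD11b-positive library of batch 2, so with batch in the fit the log2FC values of these cells rested on the other libraries.

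Il1b, the ligand whose action Il1rn opposes, ran from 33.3 through 69.3 to 150 CPM in the burn and from 14.3 through 63.7 to 76.9 CPM in the sham CD11b-positive libraries, with a log2FC of 0.14 (SE 0.24, p.adj = 1.00, edgeR). Per unit of length, the ratio of Il1rn to Il1b ran from 0.0100 through 0.0167 to 0.0221 in the burn and from 0.00298 through 0.00584 to 0.0122 in the sham libraries, with an overlap between 0.0100 and 0.0122. This ratio was not tested. Nfkbia ran from 555 through 649 to 820 CPM in the burn and from 469 through 636 to 818 CPM in the sham libraries, with a log2FC of -0.13 (SE 0.08, p.adj = 0.802, edgeR). Tnf had a log2FC of -0.17 (SE 0.11), Il1a of 0.13 (SE 0.10), Tnfrsf1b of -0.08 (SE 0.09) and Tnfrsf1a of -0.0051 (SE 0.09), all within 2 standard errors of 0.

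Markers of other myeloid cells were read in the same libraries. All 9 markers of border macrophages and monocytes were detected at 1 CPM or more on average, and their sum ran from 281 through 444 to 554 CPM in the burn and from 99.6 through 328 to 428 CPM in the sham libraries. The summed neutrophil markers ran from 69.4 through 104 to 133 CPM in the burn and from 19.3 through 73.6 to 305 CPM in the sham libraries. Both lists overlapped between burn and sham. Sham mouse 16, with the highest neutrophil sum of 305 CPM, had 1.09 CPM of Il1rn, and burn mouse 21, with the highest border macrophage sum of 554 CPM, had 6.16 CPM. The part of these cells in the Il1rn difference was not tested.

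**Figure D4:**
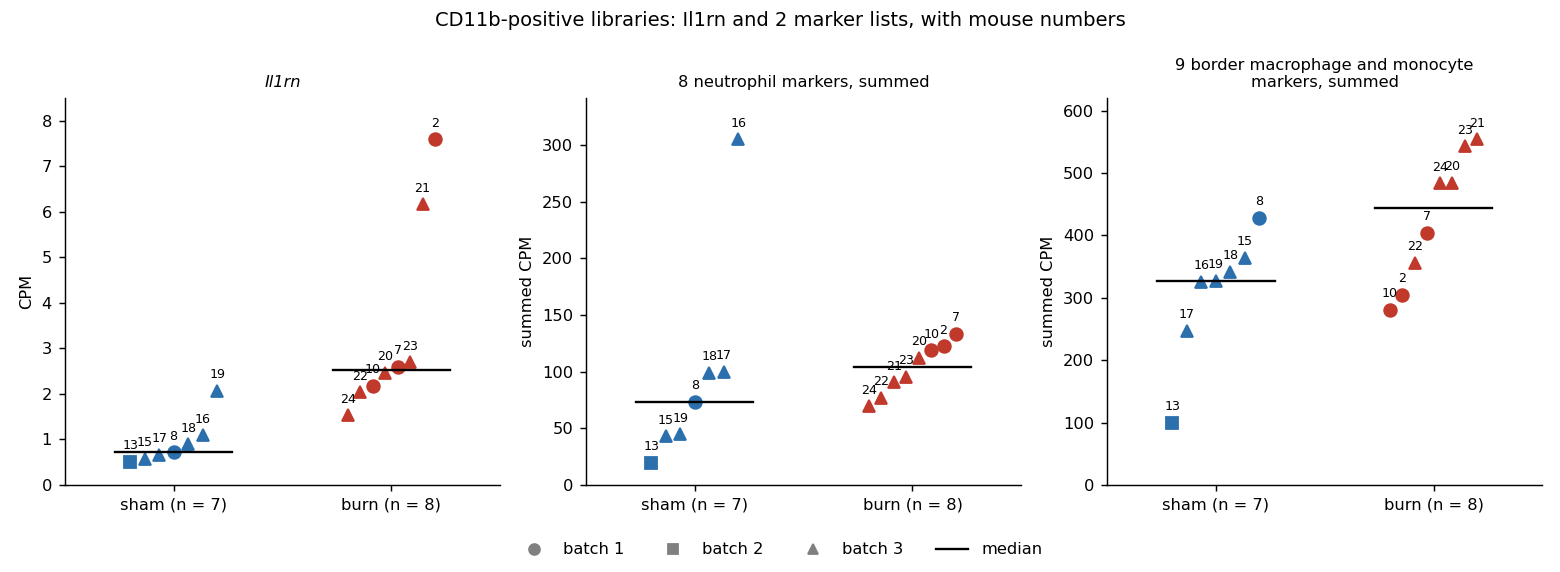
Il1rn (CPM) and the summed CPM of the border macrophage and neutrophil markers in the 7 sham and 8 burn CD11b-positive libraries, each point labelled with its mouse. The points of 6 burn libraries lie above every sham library for Il1rn, and sham mouse 19 at 2.07 CPM lies within the burn range.

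In the CaMKII positive cells, 3 of 10 genes had an unadjusted p under 0.05, beside 3.9% of all genes, and each had p.adj = 1.00 (edgeR). Il1b was at 20.7 CPM in burn mouse 2, 217 in mouse 20, 42.6 in mouse 22 and 54.2 in mouse 24, and ran from 1.85 through 18.7 to 67.8 CPM in the 6 sham libraries. Mouse 20 lay above every sham library, and the other burn mice lay within the sham range. The log2FC was 1.94 (SE 0.71, unadjusted p = 0.0172, edgeR) and 1.13 (SE 0.79) without mouse 20. Tnf was at 6.56, 18.3, 25.9 and 21.6 CPM in burn mice 2, 20, 22 and 24, and ran from 3.52 through 7.57 to 17.2 CPM in the sham libraries. The burn libraries other than mouse 2 lay above every sham library, and the log2FC was 1.05 (SE 0.39, unadjusted p = 0.0169, edgeR). Il1r1 was at 17.0, 28.9, 28.1 and 28.2 CPM in burn mice 2, 20, 22 and 24, and ran from 25.1 through 41.3 to 56.8 CPM in the sham libraries. All 4 burn libraries lay below the sham median, with a log2FC of -0.66 (SE 0.25, unadjusted p = 0.0198, edgeR). The summed microglial markers ran from 894 through 1356 to 2477 CPM in the burn and from 546 through 881 to 1883 CPM in the sham CaMKII positive libraries. The markers of border macrophages and monocytes summed to 46.7 through 78.1 to 224 CPM in the burn and 13.9 through 51.9 to 132 CPM in the sham libraries, and those of neutrophils to 0 through 2.51 to 62.3 CPM and 0 through 0.0304 to 5.38 CPM. Mouse 20, with the highest Il1b, also had the highest border macrophage sum and no neutrophil count. The mural cell markers summed to 582 through 842 to 989 CPM in the burn and 829.4 through 1145 to 1369 CPM in the sham libraries, and the endothelial markers to 3942 through 5315 to 6751 CPM and 4068 through 4709 to 11073 CPM. All 5 marker sums overlapped between burn and sham, and their part in the Il1b, Tnf and Il1r1 differences was not tested.

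In the double-positive cells, 2 of 10 genes had an unadjusted p under 0.05, beside 7.01% of all genes. Il1r1 ran from 0.977 through 2.78 to 4.55 CPM in the burn and from 0.258 through 1.14 to 2.34 CPM in the sham libraries. These levels rest on 19 to 143 counts per burn library and 6 to 126 per sham library. Of the 9 burn libraries, 6 lay above every sham library, and the log2FC was 1.29 (SE 0.47, unadjusted p = 0.0126, p.adj = 0.708, edgeR). Batch 1 held no sham library of this population, and within batch 3 alone the log2FC was 1.52 (SE 0.65). Endothelial cells express Il1r1, and the 7 endothelial markers summed to between 63.1 and 666 CPM with a median of 81.0 in the burn and to between 62.0 and 118 CPM with a median of 92.9 in the sham libraries. The astrocyte markers, from cells that also carry Il1r1, ran from 769 through 1144 to 1560 CPM in the burn and from 569 through 714 to 1588 CPM in the sham libraries. Burn mouse 10, with the highest endothelial sum of 666 CPM, had 4.28 CPM of Il1r1, and burn mouse 23, with a sum of 78.1 CPM, had 4.55. The part of endothelial cells and astrocytes in this difference was not tested. Il18 ran from 24.5 through 29.5 to 37.0 CPM in the burn and from 22.5 through 27.9 to 29.7 CPM in the sham libraries, which overlapped, with a log2FC of 0.25 (SE 0.10, unadjusted p = 0.0206, p.adj = 0.708, edgeR).

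In the ACSA2-positive cells, 0 of the 9 genes tested had an unadjusted p under 0.05 by edgeR, beside 10.7% of all genes. Nfkbia came nearest. It ran from 31.4 through 47.6 to 75.0 CPM in the burn and from 22.1 through 42.3 to 53.4 CPM in the sham libraries, with 4 of 9 burn libraries above every sham library. The log2FC was 0.32 (SE 0.16, unadjusted p = 0.0584, p.adj = 0.488, edgeR). Il18, the member with the highest level per unit of length in these cells, ran from 123 through 143 to 158 CPM in the burn and from 108 through 138 to 154 CPM in the sham libraries, with a log2FC of 0.06 (SE 0.08).

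Il1r1 had opposite burn minus sham signs in the populations of the motor cortex, and the difference between populations was tested as an interaction. By edgeR, 0 of 10 genes were called for CaMKII positive minus double-positive, beside 0.0228% of all genes, and 2 of 10 had an unadjusted p under 0.05, beside 6.77% of all genes. For Il1r1 the interaction was -2.03 (SE 0.56, unadjusted p = 0.00119, p.adj = 0.409, edgeR) and for Tnf 1.05 (SE 0.44, unadjusted p = 0.0256, p.adj = 0.665, edgeR). With the mouse as a block, over 18 of the 26 libraries, the Il1r1 interaction was -2.0 (unadjusted p = 0.00741, p.adj = 1, edgeR) and that of Tnf 0.69 (unadjusted p = 0.104, p.adj = 1, edgeR). Over the same 18 libraries with no block they were -1.90 (unadjusted p = 0.00633, p.adj = 1, edgeR) and 0.53 (unadjusted p = 0.295, p.adj = 1, edgeR). For CD11b-positive minus ACSA2-positive the interaction of Il1rn, with no count in the ACSA2-positive libraries, could not be estimated. Of the other 9 genes 0 were called, beside 0.00323% of all genes, and 0 had an unadjusted p under 0.05 by edgeR, beside 9.8% of all genes. For the interactions DESeq2 was not run, and no fit added the libraries left out or dropped a single mouse. With burn mouse 3 added, the Il1r1 log2FC in the CaMKII positive cells alone was -0.28, as given above.

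The rest of the pathway was read in 5 lists of 77 genes, 76 of which were matched, covering other interleukin-1 family genes, the inflammasome, TNF signalling, NF-kB subunits and inhibitors, and the interleukin-6 receptor. No listed gene was called in burn against sham by edgeR in any population. At an unadjusted p under 0.05, 5 of the 73 listed genes tested were higher and 0 lower in the CaMKII positive cells, beside 3.9% of all genes in both directions. In the double-positive cells 1 of 72 was higher and 2 lower, beside 7.01%, and 1 of those lower, Il36g, rested on few counts whose totals ran the other way. In the ACSA2-positive cells 4 of 71 were higher and 1 lower, beside 10.7%, and in the CD11b-positive cells 2 of 73 were higher and 0 lower, beside 7.81%. In the CD11b-positive cells these were Irak3, an inhibitor of interleukin-1 receptor signalling, with a log2FC of 0.49 (SE 0.21, p.adj = 0.639, edgeR), and Irak1, a kinase of the same route, with 0.16 (SE 0.07, p.adj = 0.639, edgeR). In the CaMKII positive cells, Nlrp3, the sensor of an inflammasome, had 1.11 (SE 0.40, p.adj = 1.00, edgeR). These genes were named after their values were seen.

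The pathway genes of highest level in the CD11b-positive libraries were Nfkbiz, an atypical IkB, at a mean of 1047 CPM (SD 190, n = 15), Il6st, the shared interleukin-6 signal transducer, at 624 (SD 90.7), Tnfaip3, which encodes the NF-kB inhibitor A20, at 608 (SD 106) and Il6ra, the interleukin-6 receptor, at 547 (SD 69.4). Cflar stood at 534, Nlrp3 at 419, Nfkbid at 369, Tab2 at 307, Il1rl2 at 61.0 and Il1rl1 at 18.1 CPM. Their burn minus sham log2FC there lay between -0.06 for Il6ra and 0.20 for Il1rl2, and none was called. Between the CD11b-positive and ACSA2-positive cells, 49 of the 73 pathway genes tested were called higher and 6 lower in the CD11b-positive cells, beside 21.8% and 32.4% of all genes, with a median log2FC of 2.28 beside -0.28 over all genes.

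Cell dissociation and sorting are known to raise immediate early genes and cytokines. The level of each gene was therefore set beside the mean log2 CPM of a list of 12 genes over the libraries of each population. This list, called the immediate early list, held Fos, Fosb, Jun, Junb, Egr1, Atf3, Ier2, Dusp1, Zfp36, Nr4a1 and the heat shock genes Hspa1a and Hspa1b. Of the 39 pairs of gene and population, 6 had a Benjamini-Hochberg adjusted permutation p of 0.05 or less for Pearson's r, and all 6 were positive. The same share over all genes was not computed in any population, so it is not known whether these genes differ from others in this. In the double-positive libraries Il1b had r = 0.921 (permutation p = 2.00e-05, adjusted 7.80e-04, n = 16) and rho = 0.856 (permutation p = 3.00e-05, adjusted 5.85e-04). Its r was 0.889 within batch 3 and 0.850 without the 2 libraries farthest from the median of the list. Il1a had r = 0.869 there (permutation p = 5.00e-05, adjusted 9.75e-04) and rho = 0.906 (permutation p = 1e-05, the smallest that 100000 permutations can give, adjusted 3.90e-04), with r of 0.902 within batch 3 and 0.766 without those 2 libraries. Nfkbia had r = 0.807 (permutation p = 4.90e-04, adjusted 0.00478) and rho = 0.724 (permutation p = 0.00222, adjusted 0.0216), then r of 0.569 within batch 3 and 0.613 without those 2 libraries, where the adjusted p was 0.306 and 0.138. Tnf had r = 0.677 (permutation p = 0.00604, adjusted 0.0393) and rho = 0.532 (permutation p = 0.0362, adjusted 0.282), but r of 0.0635 within batch 3 and 0.430 without those 2 libraries, with adjusted p of 0.978 and 0.433, so the relation did not hold in either. Burn mouse 7 was lowest in the list, at a mean log2 CPM of 9.01, and had the lowest Il1a at 338, Il1b at 6.99, Tnf at 47.0 and Nfkbia at 288 CPM of the double-positive libraries.

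In the CaMKII positive libraries Nfkbia was the only one of the 10 genes so related, with r = 0.912 (permutation p = 2.80e-04, adjusted 0.00364, n = 10) and rho = 0.964 (permutation p = 1.00e-04, adjusted 0.0013), and r of 0.935 within batch 3 and 0.857 without the 2 farthest libraries, where the adjusted exact permutation p was 0.104. Il1b had r = 0.171 (adjusted permutation p = 0.867, n = 10) in those libraries. In the CD11b-positive libraries Il1a had r = 0.688 (permutation p = 0.00455, adjusted 0.0355, n = 15) and rho = 0.514 (permutation p = 0.0516, adjusted 0.314), and r of 0.670 both within batch 3 and without the 2 farthest libraries, with adjusted p of 0.242 and 0.122. No pair passed in the ACSA2-positive libraries. The mean of the list was 10.2 ± 0.26 (SD, n = 8) in the burn and 10.1 ± 0.40 (SD, n = 7) in the sham CD11b-positive libraries, and 10.2 ± 0.55 (SD, n = 9) and 10.3 ± 0.42 (SD, n = 7) in the double-positive ones. It was 6.54 ± 0.43 (SD, n = 9) in the burn and 6.08 ± 0.80 (SD, n = 8) in the sham ACSA2-positive libraries, and 8.77 ± 0.10 (SD, n = 4) and 8.53 ± 0.51 (SD, n = 6) in the CaMKII positive ones. None of the 12 genes was called for burn minus sham in any population by edgeR. At an unadjusted p under 0.05, 3 of 12 were higher in burn in the CD11b-positive and 2 of 12 in the ACSA2-positive cells, beside 7.81% and 10.7% of all genes in either direction, and 0 in the others, beside 3.9% in the CaMKII positive and 7.01% in the double-positive cells. The median log2FC of the list was 0.17 in the CD11b-positive, 0.18 in the ACSA2-positive, 0.16 in the CaMKII positive and 0.035 in the double-positive cells, beside 0.0023, 0.045, 0.018 and -0.0039 over all genes.

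**Figure D5:**
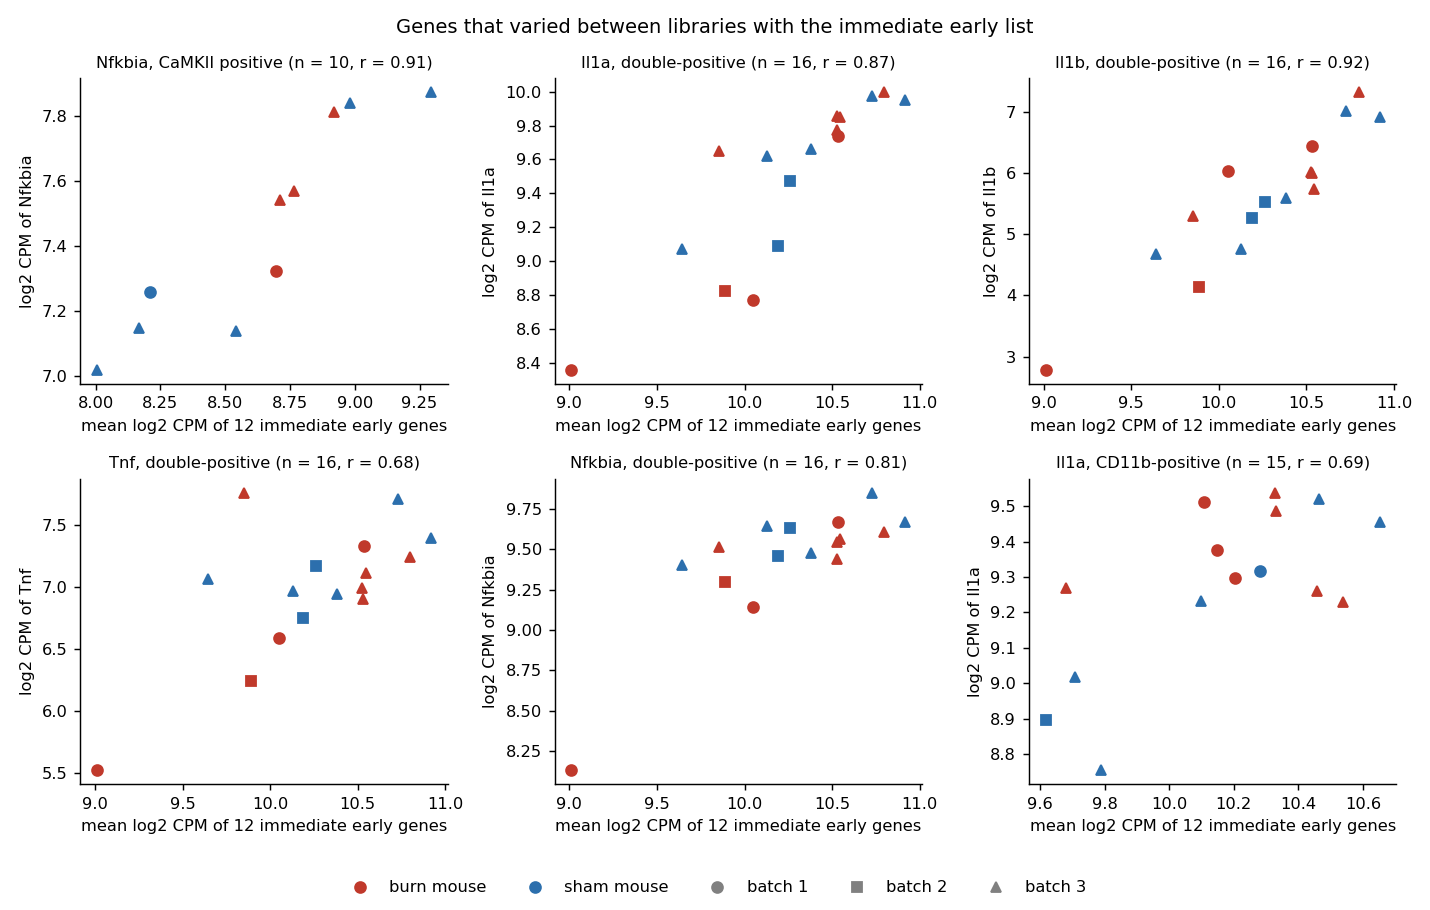
Log2 CPM of a gene (vertical axes) against the mean log2 CPM of the 12 genes of the immediate early list (horizontal axes), one point per library, for the 6 pairs of gene and population with an adjusted permutation p of 0.05 or less. The r runs from 0.677 for Tnf to 0.921 for Il1b in the double-positive libraries, and burn mouse 7 lies at the low end of all 4 double-positive panels.

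Within the CD11b-positive cells, the genes with the most similar pattern to Il1b over 15 libraries, after batch and treatment were removed and among 10729 genes, were Grk5 (Spearman's rho 0.950), Itga4 (0.921) and Gga2 (0.882). For Tnf they were Serp1 (0.879), Mta2 (0.854) and Ier3 (0.825), and for Nfkbia they were Hspa4l (0.914), Skp1a (0.900) and Ier5 (0.868). Among the 8 of the 10 genes with a mean of at least 5 CPM there, which leaves out Il1rn and Il1r1, the closest pairs were Tnfrsf1a with Tnfrsf1b at 0.693, Tnfrsf1a with Nfkbia at 0.614 and Tnf with Nfkbia at 0.582, while Il1b and Tnf had -0.018. Sham mouse 13 was alone in its batch, so removing batch set its value to 0 for every gene. The neighbours of Il1b, Tnf and Nfkbia were picked as the highest among 10729 genes, and no background over all genes was taken. These values describe libraries that share their preparation and depth, and carry no test.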

How the data were processed

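RNA of sorted cells had been made into stranded, ribosomal RNA depleted libraries. The authors trimmed reads with fastp, aligned them with STAR and deposited raw counts per Ensembl gene for each population, which are the values used here; the submitters' processing notes name GRCm39 and mm10. The deposited tables of normalised counts were not used. Whether counting used strand is not given in the sources used here. Batches were taken from the supplement of the study (3 batches), and one animal gave up to 4 libraries, so libraries of one mouse are paired by design; same-mouse deviations correlated at a median r of 0.0676 to 0.202 in the 4 pairs of populations.

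CPM was each count over the total count of its library, and CPM per kb used GENCODE exon lengths. Tests were run with edgeR 4.0.16 in R 4.3.3 (quasi-likelihood, TMM, genes with at least 10 counts in total, batch as a term and treatment as a second between populations, Benjamini-Hochberg over all genes), with DESeq2 1.42.0 as an alternative. The SE of an edgeR log2FC was its absolute value over the square root of the quasi-likelihood F statistic. The scripts were tested on simulated data. Log2 CPM for correlations used TMM and a prior count of 2, with 100000 permutations, two-sided, or all of them under 10 libraries. Named were all 10 genes, with the full statistics where the unadjusted p was under 0.05 or the smallest, the 2 pathway genes of each list with the highest CD11b-positive level, and the 3 genes most like Il1b, Tnf and Nfkbia. The genes and lists were chosen with earlier results of these data known. Alternatives were other scalings, filters, tests, batch 3 alone, all deposited libraries, each mouse left out, the mouse as a block and, chosen after seeing the data, the libraries of that fit with no block.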

Additional observations from a re-analysis of the deposited data

Results flagged for a closer look

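Of 78 groups of 4 to 10 libraries read with Dixon's criterion, 8 held a library far from the rest. The criterion flags about 1 in 20 groups, or 3.9, only where values are normally distributed. That was not shown for CPM, and Il1b and Il6 were at 0 in 7 and 8 of the 9 ACSA2-positive burn libraries. The 8 groups therefore cannot be read as more than chance gives. Burn mouse 20 stood apart for Il1b in the CaMKII positive libraries at 217 CPM, with the next at 54.2, and in the ACSA2-positive libraries at 1.03 CPM, with the next at 0.142. The same mouse stood apart for Tnfrsf1b in the CaMKII positive libraries at 95.1 CPM, with the next at 45.0. Burn mouse 2 was low for Il1r1 in the CaMKII positive libraries at 17.0 CPM, with the next at 28.1. Burn mouse 7 was low for Nfkbia in the double-positive libraries at 288 CPM, with the next at 577. Sham mouse 19 was high for Il1rn in the CD11b-positive libraries at 2.07 CPM, with the next at 1.09. Il6 stood apart in sham mouse 8 of the CaMKII positive libraries at 3.18 CPM, with the next at 0.368. It also did in burn mouse 21 of the ACSA2-positive libraries at 0.548 CPM (13 counts). The other 8 were at 0 there, so that any count would be flagged.

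Burn mouse 3, left out of the comparisons, had 5.21 CPM of Il1r1 in its double-positive library and 6.00 CPM of Il1rn in its CD11b-positive library, both above every kept sham library of the same population. Its CaMKII positive library, the only one of that population left out, had 72.2 CPM of Il1r1, above the kept sham range of 25.1 to 56.8 CPM, where the 4 kept burn libraries lay below the sham median. With it the log2FC of Il1r1 in the CaMKII positive cells was -0.28 (SE 0.36, p.adj = 1, edgeR), against -0.66 without it.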

How the results depend on the processing

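The number of genes called, 0 in each burn comparison, 10, 0, 7 and 8 of 10 between populations and 0 in each interaction, stayed within 1.5 times of itself under every alternative run. Leaving out each mouse in turn gave 0 called genes in each burn comparison. With the mouse as a block, over only the mice with both populations, 10, 0, 7 and 9 genes were called between populations, Il1b being the gene added, and no other call changed. The same libraries with no block, chosen after seeing the data, gave 10, 0, 7 and 8. The number of pairs of gene and population related to the immediate early list fell from 6 to 3 within batch 3 alone. It fell to 2 without the 2 libraries farthest from the median, and both settings hold fewer libraries. It was 4 by Spearman's rho over all kept libraries. Among the log2FC values of the genes named with their alternatives, none changed direction or gained or lost a call other than that of Il1b, although the p.adj of Tnfrsf1b for double-positive minus CD11b-positive ran from 4.56e-04 to 0.385. Leaving out a mouse moved Il1rn in the CD11b-positive cells between 1.36 (without burn mouse 21) and 2.05 (without sham mouse 19), Il1r1 in the double-positive cells between 0.97 (without burn mouse 23) and 1.63, and Il1b in the CaMKII positive cells between 1.13 and 2.36. With all deposited libraries, Il18 in the double-positive cells moved from 0.25 to 0.49 and Il1r1 in the CaMKII positive cells from -0.66 to -0.28. The double-positive fit then held sham mouse 8, a library of 331215 counts and the only sham library of batch 1. It called 136 of 27116 genes, all lower in burn. The p.adj of Il1rn ran from 0.0729 to 0.835 over its alternatives. Scaling by library size moved the median log2FC of all genes for CaMKII positive minus double-positive from 0.049 to 0.29. The CaMKII positive burn group held 4 libraries. Il1rn had 10 to 343 counts in the CD11b-positive libraries, and Il1r1 had 6 to 143 in the double-positive ones. This limits the precision of each.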

Other observations

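Several pathway genes outside the 10 had an unadjusted p under 0.05 for burn minus sham and did not pass the correction. In the CaMKII positive cells these were Tnfaip8l2 with a log2FC of 1.15, Bcl3 with 0.79, Rel with 0.72 and Nfkbiz with 0.47, beside Nlrp3, and each had a p.adj of 1.00 by edgeR. In the ACSA2-positive cells Rhbdf2, which helps to bring the TNF-releasing protease to the cell surface, had 0.81, Il18bp, the secreted binding protein of interleukin-18, had 0.64 and Rel had 0.51, while Adam17, the protease that releases TNF, had -0.18, each with a p.adj of 0.458 by edgeR. Tnfaip8l2 had a log2FC of -0.33 (SE 0.09, p.adj = 0.708, edgeR) in the double-positive cells, opposite in sign to the CaMKII positive cells. The interaction of burn with population for Tnfaip8l2, CaMKII positive minus double-positive, was 1.35 (SE 0.29, unadjusted p = 7.09e-05, p.adj = 0.156, edgeR), 1.69 within batch 3 alone (p.adj = 0.135, edgeR) and 1.28 with the mouse as a block (p.adj = 1, edgeR), and did not pass the correction. In the double-positive cells Il6st had a log2FC of 0.27, also with a p.adj of 0.708 by edgeR. The remaining genes rested on few counts. Lta had 58 counts over the 9 ACSA2-positive burn libraries, 5 of them at 0, and no count in the 8 sham libraries (unadjusted p = 0.00790, p.adj = 0.458, edgeR). Il36g had 27 counts in a single burn library and 9 counts over the 7 sham libraries of the double-positive cells. Its log2FC from the fit with batch was -3.87 (SE 1.70, unadjusted p = 0.0368, p.adj = 0.708, edgeR), opposite to the direction of the count totals.

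Burn mouse 20 held the highest Il1b of its population in the CaMKII positive libraries at 217 CPM, in the double-positive libraries at 158 CPM and in the ACSA2-positive libraries at 1.03 CPM, and 81.2 CPM in its CD11b-positive library, where the range was 14.3 to 150.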
